A study of Homo sapiens with 2 samples.

Results

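The members described here are miR-221 and miR-222, a pair of miRNAs made from 1 long transcript on the X chromosome, together with 3 genes reported as their targets: CDKN1B, CDKN1C and BBC3. The members were taken by name: the rows of both arms of each miRNA in the miRNA table, which are hsa-miR-221-3p, hsa-miR-222-3p, hsa-miR-221-5p and hsa-miR-222-5p, and the rows of the 3 genes in the gene table. All 4 arms had a row among 1224 listed miRNAs. Of the 3 genes, CDKN1B and BBC3 had a row among 21445 listed genes and CDKN1C had none. The source was U87MG, an established human glioblastoma line, untreated, with 1 small RNA library and 1 mRNA library. There was no control cell, no second line and no replicate, so every value is a level in 1 library and no difference could be set against a spread between replicates. The small RNA library held 11785001 reads assigned to miRNAs, and how deeply the mRNA was sequenced is not known.

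miR-221 and miR-222 are cut from neighbouring hairpins and are often raised in glioblastoma and other tumours. A miRNA guides an Argonaute protein to mRNAs that pair with its seed, bases 2 to 8 from its 5′ end, and lowers their translation and stability. CDKN1B (p27) and CDKN1C (p57) are inhibitors of the cyclin-dependent kinases that carry a cell into DNA synthesis, and BBC3 (PUMA) is a trigger of apoptosis. Both miRNAs are best known for repressing CDKN1B.

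The mature sequences show what the 3p arms share and the 5p arms do not. They are those deposited with the counts, written 5′ to 3′ with U for T, and the capitals mark the seed.
miR-221-3p: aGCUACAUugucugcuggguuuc
miR-222-3p: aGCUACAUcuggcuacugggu
miR-221-5p: aCCUGGCAuacaauguagauuu
miR-222-5p: cUCAGUAGccaguguagauccu
The 3p arms had the same first 8 bases, seed included, and matched at 11 of 21 positions when aligned from the first base. The 5p arms matched at 3 of 22 positions when aligned from the first base and had different seeds. Their longest common run was 7 bases, UGUAGAU, near the 3′ end of both.

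Each arm was found once in its RefSeq hairpin (GRCh38.p14, minus strand of the X chromosome). The hairpins are shown with the mature arms in capitals, the 5p arm first. MIR221 lies at chrX:45746157-45746266 and MIR222 at chrX:45747015-45747124, with 748 bases between them, and RefSeq places both inside the long non-coding gene MIR222HG.
MIR221: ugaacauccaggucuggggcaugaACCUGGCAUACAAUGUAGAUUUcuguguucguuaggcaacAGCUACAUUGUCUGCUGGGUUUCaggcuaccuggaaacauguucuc
MIR222: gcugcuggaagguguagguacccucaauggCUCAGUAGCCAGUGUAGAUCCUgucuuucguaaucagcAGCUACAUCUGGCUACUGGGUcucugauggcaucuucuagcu
Both hairpins are 110 bases long, with 18 bases between the arms of MIR221 and 16 between those of MIR222. In the predicted minimum-energy fold, 21 of the 23 bases of miR-221-3p and 17 of the 22 bases of miR-221-5p were paired. For MIR222, 18 of the 21 bases of the 3p arm and 19 of the 22 bases of the 5p arm were paired.

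The 3p arms were among the most abundant miRNAs of the library. miR-221-3p had 277469 reads, 2.35% of the miRNA reads (exact 95% interval 2.35 to 2.36%), and ranked 5 of 1224. miR-222-3p had 96461 reads, 0.819% (0.813 to 0.824%), and ranked 12. The intervals cover counting error only, and they take each read as independent. The reads carry no molecular identifiers and are not independent molecules, so the intervals may be too narrow even for counting error. In both hairpins the 3p arm, the one with the seed shared by the pair, carried most of the reads.

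The 5p arms differed far more from each other. miR-221-5p had 27732 reads, 0.235% (0.233 to 0.238%), and ranked 32, ahead of well-known miRNAs such as miR-22-3p with 26746 reads and miR-191-5p with 26673. miR-222-5p had 564 reads, 0.00479% (0.00440 to 0.00520%), and ranked 187. All 4 arms had at least 10 reads, as did 51.6% of the listed miRNAs. The 4 arms together held 402226 reads, or 3.41% (3.40 to 3.42%).

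The share depends on what is counted in the total, since miR-21-5p alone had 6933511 reads. Among the remaining 4851490 miRNA reads, the 4 arms held 8.29%, miR-221-3p 5.72% and miR-222-3p 1.99%. Of miRNA and piRNA reads together, the 4 arms held 1.03%. The order of the 4 arms is that of their reads and does not depend on the total.

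**Figure D1:**
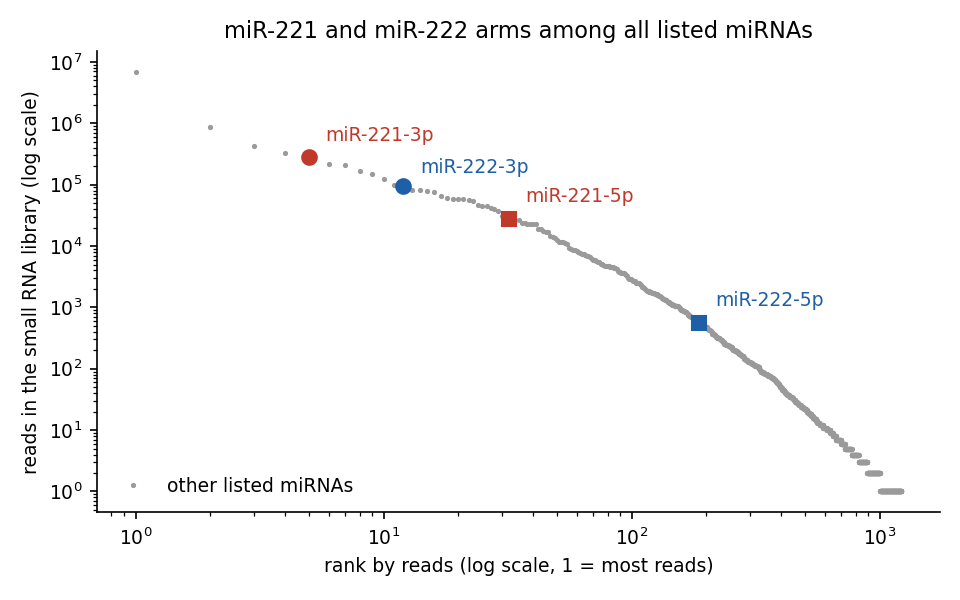
Reads of each listed miRNA (y axis, log scale) against its rank by reads (x axis, log scale) in the small RNA library. Red marks the arms of miR-221 and blue those of miR-222, with circles for 3p and squares for 5p; the 3p arms sit at ranks 5 and 12, miR-221-5p at 32 and miR-222-5p at 187.

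Neighbours in that order give a sense of each level. miR-221-3p lay between let-7a-5p, with 325277 reads, and let-7f-5p, with 218267, both members of the tumour-suppressing let-7 family, at 0.853 and 1.27 times their reads. miR-222-3p lay between miR-7641 with 97041 reads and miR-29a-3p with 82988. It was at 0.994 times the reads of miR-7641, a name that is often regarded as a fragment of 5S rRNA. miR-221-5p lay next to miR-24-3p, at 0.988 times its 28067 reads, and miR-222-5p next to miR-320b, at 0.998 times its 565 reads. The neighbours of miR-222-5p were within counting error of it, from miR-193a-5p with 598 reads to miR-589-5p with 556.

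No other listed miRNA had the seed of the 3p arms. miR-221-3p and miR-222-3p were the only listed miRNAs with GCUACAU at bases 2 to 8, the only ones with its first 6 bases at positions 2 to 7, and the only ones that held these 7 letters anywhere. Together they had 373930 reads, 3.17% of the total (3.16 to 3.18%), which placed this seed at rank 4 of 1010 seeds. It followed the seeds of miR-21-5p with 58.8%, of the let-7 family with 15.1% over 9 miRNAs, and of miR-100-5p with 4.62% over 3. miR-221-3p supplied 74.2% of the reads of the shared seed and miR-222-3p 25.8%.

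The 5p seeds belonged to 1 listed miRNA each. The seed of miR-221-5p, CCUGGCA, ranked 23 of 1010 with the 27732 reads of that arm, and that of miR-222-5p, UCAGUAG, ranked 146. The letters CCUGGCA also occurred away from the seed position in miR-23b-5p and miR-6753-3p, and those of UCAGUAG in miR-3074-3p. No other miRNA and no piRNA entry shared 16 bases in a row with any of the 4 arms on either strand.

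**Figure D2:**
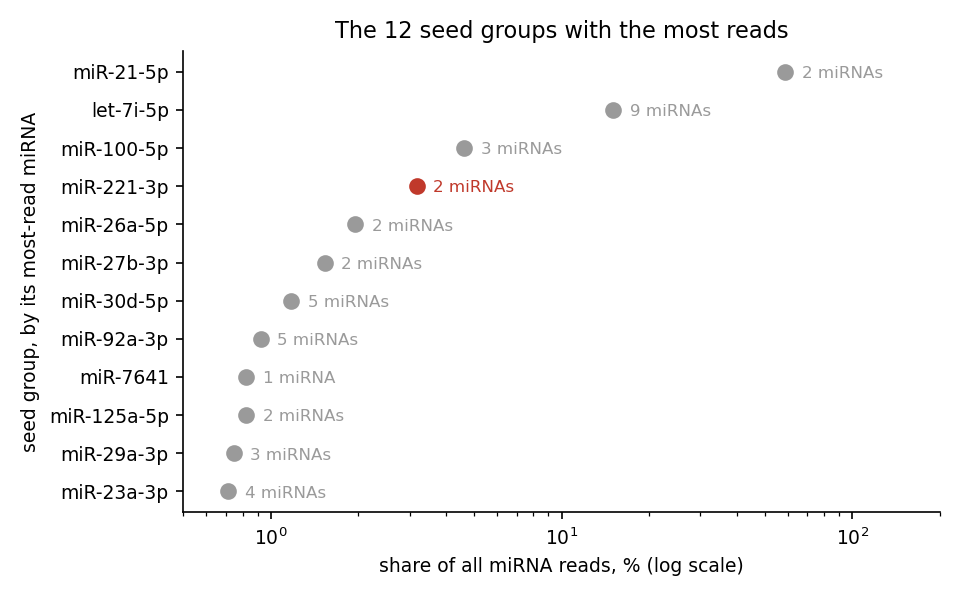
Share of all miRNA reads (x axis, log scale) held by each of the 12 most-read seed groups (y axis, named by the most-read miRNA), with the number of listed miRNAs in the group beside each point. The group of miR-221-3p and miR-222-3p, in red, holds 3.17%, after those of miR-21-5p, let-7i-5p and miR-100-5p.

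Although both hairpins lie in 1 transcript, miR-221 had more reads than miR-222 on each arm. For the 3p arms the ratio of miR-221 to miR-222 was 2.88 (2.86 to 2.90), from 277469 and 96461 reads. For the 5p arms it was 49.2 (45.2 to 53.5), from 27732 and 564 reads. The intervals do not overlap, so the excess of miR-221 was larger on the 5p arm than counting error of independent reads gives. Without a second library there is no test of it.

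The same values show a less strict arm use in miR-221. The 3p arm held 90.9% of the miR-221 reads (90.8 to 91.0%) and 99.4% of the miR-222 reads (99.4 to 99.5%). Reads of the 3p arm exceeded those of the 5p arm 10.0 times in miR-221 (9.88 to 10.1) and 171 times in miR-222 (157 to 186). For a wider comparison arms were paired by name, so miRNAs with numbered arms, such as miR-125b-5p and miR-125b-1-3p, were left out. A name made by several hairpins, such as let-7a, counted as 1 hairpin. Among 169 hairpins so defined, with both arms listed and at least 100 reads, the median ratio of the higher to the lower arm was 21.0. The ratio in miR-221 was above that of 34.9% of the hairpins and the ratio in miR-222 above that of 83.4%.

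In absolute reads the lower arm of miR-221 was the most abundant among these hairpins. Of the 169 hairpins, none had a lower arm with more reads than miR-221-5p. The next were miR-27a-5p with 26574 reads, miR-455-3p with 12402 and miR-21-3p with 8889, against a median of 77.0 reads for a lower arm. miR-27a and miR-455 used their arms more evenly than miR-221, with 54687 and 23063 reads on the higher arm. The lower arm of miR-222 ranked 30.

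**Figure D3:**
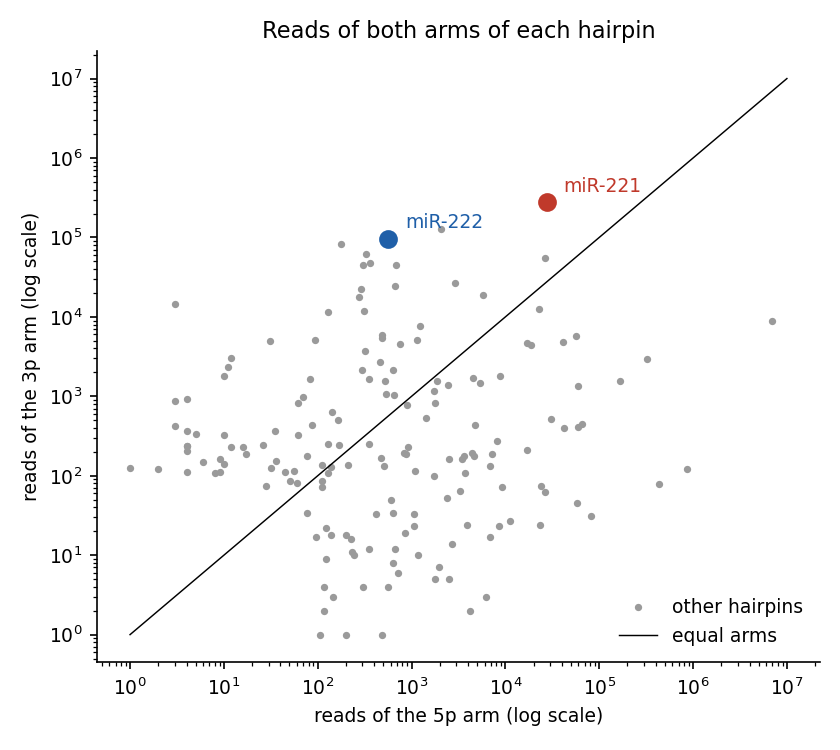
Reads of the 3p arm (y axis, log scale) against reads of the 5p arm (x axis, log scale) for 169 hairpins; the line marks equal arms. miR-221 (red) and miR-222 (blue) both lie above the line, miR-221 with 27732 and miR-222 with 564 reads on the 5p axis.

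Other hairpins that lie close together gave a rough scale for the ratio of the pair. Counting only miRNA names that belong to 1 hairpin, there were 75 pairs of hairpins next to each other within 10 kb on 1 strand with at least 100 reads in the higher one. The median ratio of the higher to the lower was 12.5 (quartiles 4.11 and 92.0). The name rule drops arms made by more than 1 hairpin, so some hairpins were counted by their lesser arm alone. MIRLET7A2, for instance, was counted by let-7a-2-3p only, with 116 reads against 430396 for MIR100. Such pairs have large ratios because of the rule, and the median and the ranks below depend on it. miR-221 had 305201 reads over both arms and miR-222 had 97025, a ratio of 3.15. This placed the pair at rank 17 of 75 from the most equal, next to miR-379 and miR-411 at 2.79 and miR-182 and miR-96 at 3.90. By summed reads the pair ranked second. Pairs in 1 cluster share hairpins, so they are not independent of each other.

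The host transcript MIR222HG had no row in the gene table. Of the 8 coding genes nearest to it in RefSeq order, 6 had a row and all 6 reached 1 FPKM, a unit of fragments scaled by gene length and library size. So did 64.6% of all listed genes and 77.5% of listed coding genes. KDM6A, a histone demethylase, was at 13.3 FPKM and SLC9A7, a proton exchanger, at 40.9. DUSP21 and DIPK2B had no row. A missing row was not read as a lack of expression: 70.5% of the RefSeq coding genes had a row, and every listed value was above 0.

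Factors reported to drive or repress the miR-221 and miR-222 transcript ranged from 0.951 to 126 FPKM. Of 10 such factors, 9 had a row and 8 of these reached 1 FPKM, against 77.5% of listed coding genes. The median of the 9 was 17.3 FPKM, against 2.96 over all listed genes and 7.82 over listed coding genes. The AP-1 subunits, reported activators, led the list: FOSL1 was at 126 FPKM, FOS at 95.4 and JUN at 71.0. The NF-kB subunits RELA and NFKB1, also reported activators, were at 23.3 and 15.4 FPKM. ZBTB16, a reported repressor, had no row, and the oestrogen receptor ESR1, another reported repressor and also a reported target, was at 0.951 FPKM. RUNX1 was at 17.3, RUNX2 at 12.7 and EZH2, a chromatin repressor, at 11.3 FPKM.

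Of the 3 target genes, CDKN1B was at a level above the middle of the coding genes and BBC3 below it. CDKN1B (ENSG00000111276) was at 14.5 FPKM, 1.85 times the median of listed coding genes. It ranked 4877 of 14376 coding genes, above 66.1% of them, or above 75.7% of all listed genes. The coding genes closest to it in level were MDGA1 at 14.52 and APOA1BP at 14.49 FPKM. A level in a single library does not tell whether the miRNAs lowered it.

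BBC3 (ENSG00000105327) was at 2.12 FPKM, 0.272 times the coding median. It ranked 10186 of 14376 coding genes, above 29.1% of them, above 45.6% of all listed genes and above 15.8% of the genes at 1 FPKM or more. PCYOX1L and GRK4 were the genes next to it, both at 2.12 FPKM. CDKN1B was at 6.83 times the FPKM of BBC3.

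CDKN1C (ENSG00000129757) had no row, by identifier, symbol or older symbol. It lies in the imprinted region of chromosome 11, where the long non-coding RNA KCNQ1OT1 silences it on the paternal copy. All 8 coding genes next to it had a row, from CD81, a tetraspanin of the cell surface, at 127 FPKM to TRPM5, an ion channel, at 0.0313. Of 6 imprinted genes of the region, all had a row and 3 were at 1 FPKM or more, against 64.6% of all listed genes. PHLDA2 was at 3.78 FPKM, SLC22A18 at 3.41 and KCNQ1OT1 at 2.24, against 0.220 for H19, 0.140 for KCNQ1 and 0.0268 for the growth factor IGF2. KCNQ1OT1 lies within KCNQ1 on the other strand, and the sources used here do not say whether reads were counted by strand. CDKN1C was thus without a row between neighbours that all had one.

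**Figure D4:**
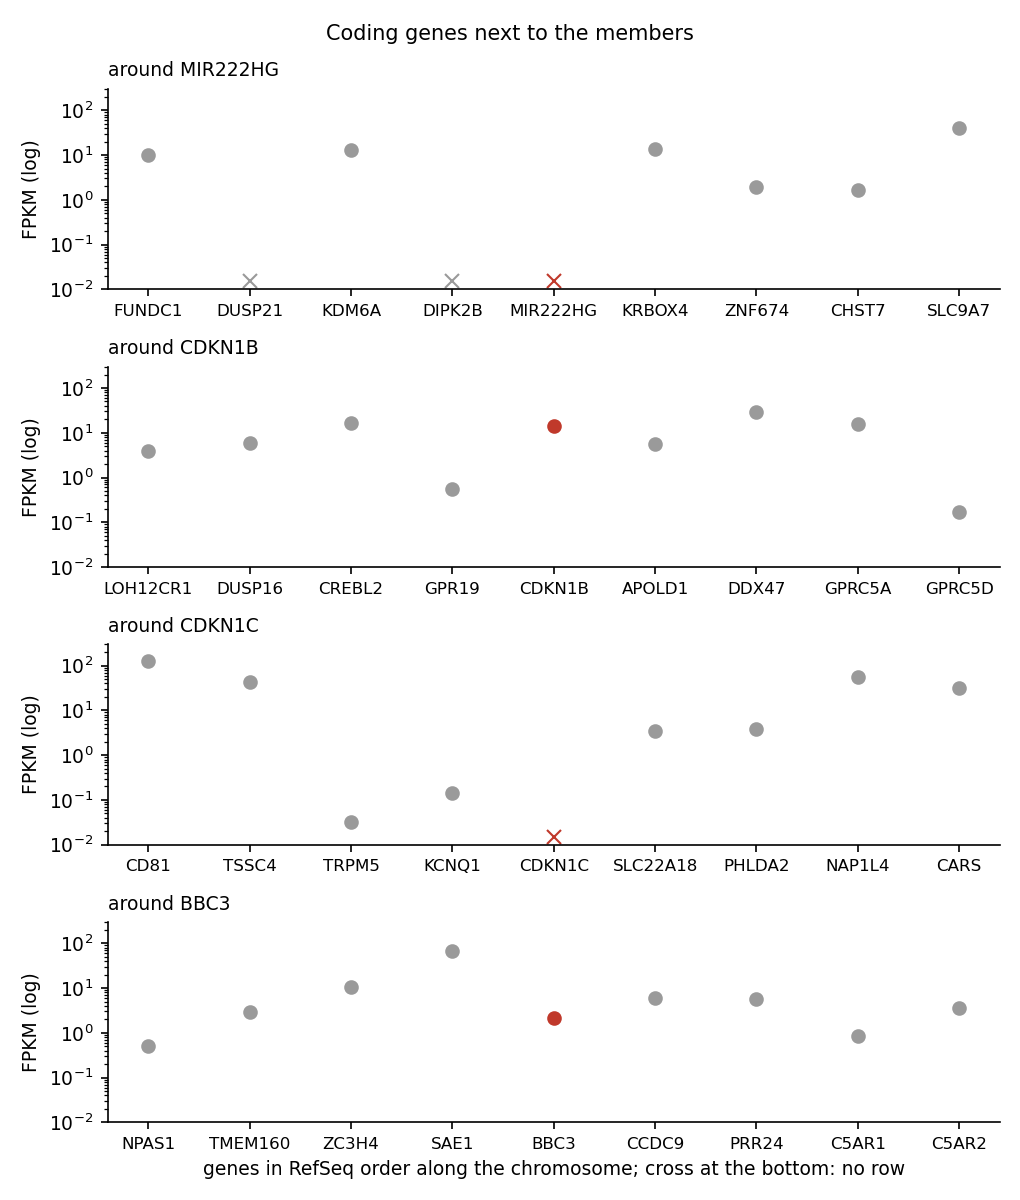
FPKM (y axis, log scale) of MIR222HG, CDKN1B, CDKN1C and BBC3 (red) and of the 4 coding genes on each side (grey), in RefSeq order along the x axis. Crosses mark genes with no row: MIR222HG, its neighbours DUSP21 and DIPK2B, and CDKN1C, whose 8 neighbours all had a value.

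CDKN1B was the lower of the CIP/KIP inhibitors that had a row. CDKN1A (p21) was at 157 FPKM, 10.8 times CDKN1B. Of the INK4 inhibitors, which block CDK4 and CDK6, CDKN2D was at 11.2 FPKM, and CDKN2A, CDKN2B and CDKN2C had no row. Among listed CDK inhibitors of both families, CDKN1A stood highest and CDKN1B second.

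Most of the kinases and cyclins that CIP/KIP proteins bind were above the median coding gene. All 9 had a row and 8 reached 1 FPKM, against 77.5% of listed coding genes. Their median was 17.1 FPKM. CDK2, the main kinase inhibited by CDKN1B, was at 18.7 FPKM, 1.29 times CDKN1B. Its partners CCNE2, CCNE1 and CCNA2 were at 10.5, 6.89 and 17.1 FPKM. The G1 genes CCND1, CDK4 and CDK6 were higher, with CCND1 at 272 FPKM (18.8 times CDKN1B), CDK4 at 121 and CDK6 at 42.0. CCND3 was at 9.37 and CCND2 at 0.0369 FPKM.

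The 8 genes of CDKN1B protein turnover ranged from 7.36 to 229 FPKM, and their median was 29.9, against 7.82 over listed coding genes. All 8 reached 1 FPKM, as did 77.5% of listed coding genes. SKP2, which brings CDKN1B to the SCF ubiquitin ligase, was at 8.56 FPKM, 0.590 times CDKN1B, and its cofactor CKS1B at 47.6. The ligase subunits SKP1, CUL1 and RBX1 were at 229, 31.0 and 28.9 FPKM. The cytoplasmic KPC ligase subunits RNF123 and UBAC1 were at 7.36 and 19.3, and COPS5, a reported exporter of CDKN1B from the nucleus, at 36.9.

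Regulators of the CDKN1B mRNA ranged from 0.115 to 30.3 FPKM. All 7 had a row and 5 reached 1 FPKM, against 77.5% of listed coding genes. Their median was 13.7 FPKM. PUM2, an RNA-binding protein reported to open the CDKN1B mRNA to miR-221 and miR-222, was at 30.3 FPKM, 2.09 times CDKN1B. DND1, a germ-cell protein reported to block these miRNAs, was at 0.115. ELAVL1, which binds the 5′ end of the CDKN1B mRNA, was at 26.8. Of the forkhead factors that activate CDKN1B transcription, FOXO3 was at 13.7, FOXO4 at 1.87 and FOXO1 at 0.419 FPKM.

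The other miRNAs listed here as reported to act on the same 3 genes had fewer reads than the pair. They are shown, as deposited and with U for T, because none of their seeds is that of miR-221-3p. The first 6 are reported for CDKN1B, the next 2 for CDKN1C and the last for BBC3.
miR-24-3p: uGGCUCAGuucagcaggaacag
miR-152-3p: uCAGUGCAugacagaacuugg
miR-148a-3p: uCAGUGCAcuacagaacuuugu
miR-181a-5p: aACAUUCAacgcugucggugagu
miR-196b-5p: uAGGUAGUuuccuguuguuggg
miR-196a-5p: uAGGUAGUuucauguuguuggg
miR-25-3p: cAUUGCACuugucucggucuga
miR-92b-3p: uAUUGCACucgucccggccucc
miR-125b-5p: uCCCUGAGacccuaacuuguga
miR-24-3p had 28067 reads, miR-181a-5p 18686, miR-152-3p 17576, miR-148a-3p 4992, miR-196b-5p 84 and miR-196a-5p 12. The 3p arms of miR-221 and miR-222 together had 5.39 times (5.34 to 5.43) the 69417 reads of these 6. miR-152-3p and miR-148a-3p share 1 seed, as do the miR-196 pair. For CDKN1C, miR-25-3p had 24180 reads and miR-92b-3p 5416, with 1 seed between them, and the pair had 12.6 times (12.5 to 12.8) their sum. For BBC3, miR-125b-5p had 37783 reads, and miR-483-3p had no row. These sums hold only the listed names and leave out other miRNAs with the same seeds. The seed of miR-25-3p and miR-92b-3p, led by miR-92a-3p with 78265 reads, had 108790 reads over 5 miRNAs. That of miR-125b-5p, led by miR-125a-5p with 59154 reads, had 96937 over 2. The pair had 373930.

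BBC3 stood among the lower BH3-only genes, the sensors that switch on apoptosis. Of 8 members, 7 had a row and 6 of these reached 1 FPKM, against 77.5% of listed coding genes. Their median was 4.75 FPKM. BAD was at 42.2 FPKM, 19.9 times BBC3, and BID at 15.03, followed by BMF at 5.26 and PMAIP1 (NOXA) at 4.75. Below BBC3 were BCL2L11 (BIM) at 1.65 and HRK at 0.269, and BIK had no row. BMF and BCL2L11 are themselves reported targets of the miRNA pair and are also counted there.

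Most of the guardians that BBC3 binds, and the effectors that guardians hold back, were at higher FPKM than BBC3. So were most listed coding genes, as BBC3 was above only 29.1% of them. Of 8 guardians and effectors, 6 had a row and 5 of these reached 1 FPKM, against 77.5% of listed coding genes. Their median was 21.7 FPKM. The guardian MCL1 was at 87.4 FPKM, 41.2 times BBC3, BCL2L1 (BCL-XL) at 39.6 and BCL2L2 at 19.3, against 0.604 for BCL2 itself. BCL2A1 and BOK had no row. The pore-forming effectors BAX and BAK1 were at 24.2 and 8.57 FPKM. Of the activators of BBC3 transcription, FOXO3 was at 13.7 FPKM and TP73 at 0.0252.

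**Figure D5:**
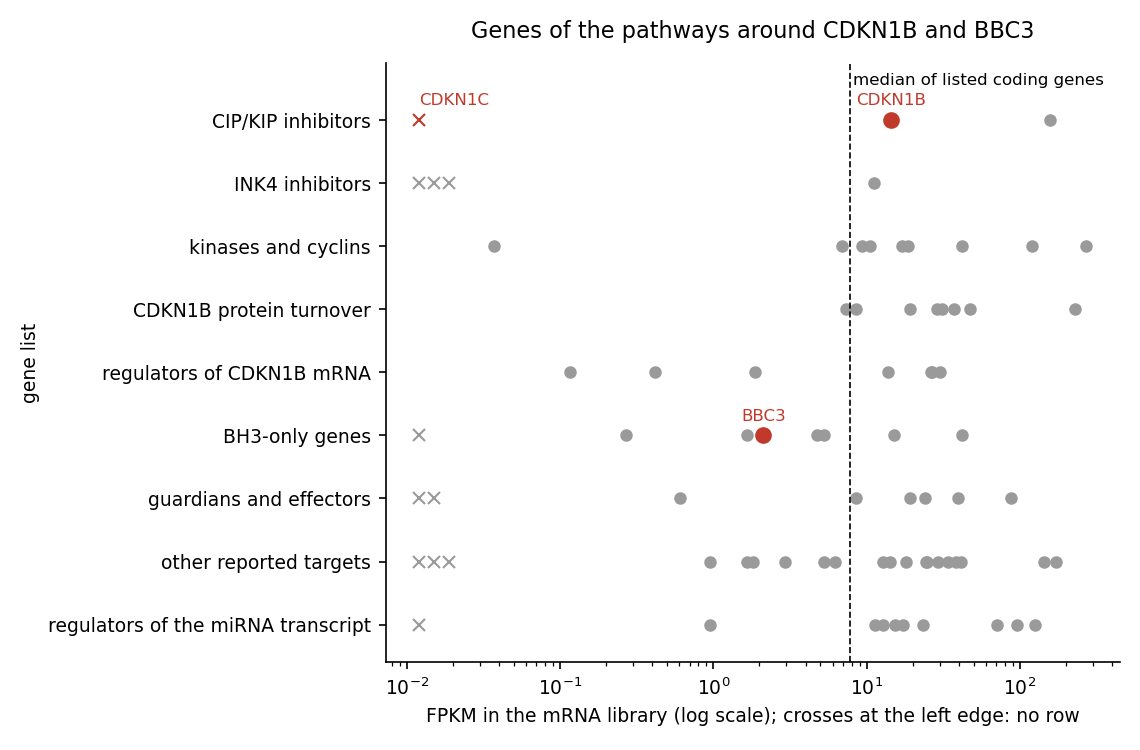
FPKM (x axis, log scale) of each gene in 9 lists (y axis), with the members CDKN1B, CDKN1C and BBC3 in red and genes with no row as crosses at the left edge. The dashed line is the median of listed coding genes, 7.82 FPKM; CDKN1B lies right of it at 14.5 and BBC3 left of it at 2.12.

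Other genes reported as targets of miR-221 and miR-222 covered a wide range. Of 20, 17 had a row and 16 of these reached 1 FPKM, against 77.5% of listed coding genes. The median of the 17 was 18.0 FPKM, against 7.82 over listed coding genes, and it was 13.6 when the 3 missing genes were entered as 0. DDIT4, an inhibitor of mTOR and a brake on growth, was at 173 FPKM. GJA1 (connexin 43), a gap junction protein, was at 143. PTPRM, a receptor phosphatase, was at 41.6, ETS1 at 34.2 and ICAM1, an adhesion molecule, at 29.2.

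The remaining targets named here had lower values. PPP2R2A, a subunit of protein phosphatase PP2A, was at 24.96 FPKM, TRPS1, a zinc-finger repressor, at 24.4, TIMP3, a metalloproteinase inhibitor, at 18.0, ARNT at 14.2 and TNFAIP3, a brake on NF-kB, at 12.9. RECK, an inhibitor of matrix proteases, was at 6.19 and APAF1, the scaffold of the apoptosome, at 2.93. DIRAS3, an imprinted tumour suppressor, was at 1.80 FPKM. KIT, the stem cell factor receptor, MGMT, a DNA repair enzyme, and DKK2, a Wnt antagonist, had no row.

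Levels of cell type markers were also read, although they cannot by themselves establish which line this is. The mesenchymal markers VIM, TGFBI, CD44 and FN1 were between 538 and 2420 FPKM. Of 4 astrocyte markers, GJA1, which is also among the reported targets, was at 143 FPKM, GFAP, their filament protein, was at 0.331, and no row was found for AQP4 or S100B. Of 4 proneural or stem markers, NES was at 1.38 FPKM, and OLIG2, SOX2 and DLL3 had no row. Of 6 markers of immune, endothelial and oligodendrocyte cells, MBP was at 0.285 and CDH5 at 0.0675 FPKM, and PTPRC, AIF1, PECAM1 and MOG had no row.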

How the data were processed

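Per the file headers, the small RNA tables hold read counts of each mature miRNA and each piRNA entry, and the gene table holds FPKM as the authors computed it. Nothing in the counts corrects for unequal ligation of different sequences. The submitters' processing notes name cutadapt and the builds hg19 and GRCh37. The aligner, counter, FPKM program, annotation and the rule for shared reads are not stated in those sources. The labels repeat the small RNA protocol for the mRNA library, so how its RNA was selected is not known. Both libraries came from Trizol RNA, with integrity numbers of 8.7 and 9.3 per the labels. The gene table's length column holds 198 for CDKN1B and 193 for BBC3, which are lengths of the proteins rather than of transcripts, and was not used.

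Shares have exact Clopper-Pearson 95% intervals, and ratios the odds of such an interval (scipy 1.17.1). Hairpins were folded with RNAfold of ViennaRNA 2.7.2. Genes were matched by Ensembl identifier, symbol, older symbol, then RefSeq synonym. Hairpins came from RefSeq on GRCh38.p14, which holds no mature row for miR-221-5p, and its gene order was used for names and order only. List medians are of FPKM, and those of the reported targets were also taken on log2(FPKM + 1). With 1 library of each kind no test was made. Intervals and ranks were tested on simulated data, where the tolerance for ranks was widened after miR-222-5p, which lies among miRNAs of nearly equal reads, missed a narrower one. The simulation drew independent reads from the observed shares. It therefore checked the calculation only and cannot tell whether the intervals hold for reads that are not independent. Every member and every gene of the lists could be named (the values of a few list genes are not reported here), with the nearest ranks and gene neighbours. The ranking of lower arms and the comparison of adjacent hairpins were added after the values were seen. The other miRNAs named there, those named for the largest seed groups and for the total, and those holding the letters of a 5p seed elsewhere were likewise chosen after their values were seen. The members and lists were chosen with earlier results of these data known, and the roles and reported targets from general knowledge. Alternatives were other totals, seed lengths, read minimums, gene pools, FPKM thresholds and pseudocounts.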

Additional observations from a re-analysis of the deposited data

How the results depend on the processing

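Of 20 alternative values, 6 stayed within counting error, at the same rank, within 5% or within 1.5 times for a count, and 14 moved. The pseudocount, counted among the 6, could not move the median of the 17 targets with a row, since the middle gene stays the same. Shares moved with the total: without miR-21-5p, miR-221-3p held 5.72%, miR-222-3p 1.99%, the 4 arms 8.29% and the shared seed 7.71%. Of miRNA and piRNA reads together they held 0.710%, 0.247% and 1.03%, the seed not being recomputed. Percentiles fell with the pool: CDKN1B stood at 66.1 among coding genes and 62.5 among genes at 1 FPKM or more, BBC3 at 29.1 and 15.8. With missing genes at 0 the median of the reported targets, taken on log2(FPKM + 1) and turned back to FPKM, was 13.5. With a minimum of 1000 reads, miR-221 and miR-222 ranked 24 and 7 of 98 hairpins by 3p share, against 46 and 9 of 169. The ranks of both 3p arms and the seed on bases 2 to 7 gave the same values. The target count, 16 at 1 FPKM, was 17 at 0.5 FPKM and 13 at 5. The shares of all listed genes at 0.5 and 5 FPKM were not computed, so these counts cannot be set against a background. No paired analysis was possible because each kind of library has 1 sample. With reads taken as independent, counting error is small for all arms but miR-222-5p. The error of the FPKM values could not be estimated.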
